A study of Mus musculus with 9 samples.

Results

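The clustered histone genes were described in RNA-Seq libraries of mouse embryonic fibroblasts (MEFs) made from poly(A) RNA. The genes were taken by symbol, as all rows whose name starts with Hist1h, Hist2h, Hist3h or Hist4h, which gave 68 of the 24341 genes listed. They comprised 6 linker histone H1 genes, 18 H2A, 19 H2B, 12 H3 and 13 H4 genes. By cluster, 54 belonged to Hist1 on chromosome 13, 10 to Hist2, 3 to Hist3 and 1 to Hist4. The MEFs came from C57BL/6 mice and were cultured in DMEM with fetal bovine serum. Of the 9 samples, 3 were labelled WT, 3 Atm-/- and 3 Sirt6-/-, where -/- stands for loss of both alleles of the gene of the DNA damage kinase Atm or of the histone deacylase Sirt6. The sample labels also name P53-/- and Atm-/-P53-/- mice as a source of MEFs, and the study's methods list immortalized Atm-/- MEFs that also lack p53, immortalized Sirt6-/- MEFs from a different laboratory, and primary MEFs. Which of these were sequenced is not stated, so that genotype and cell source cannot be told apart. Neither source says whether the 3 samples of a genotype were separate cultures or embryos, so the p-values below measure the spread between these samples, which may be technical.

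Histone proteins package DNA into nucleosomes, in which pairs of H2A, H2B, H3 and H4 form the core and H1 binds the linker DNA. Most copies of these proteins are made in S phase from the clustered genes, whose mRNAs are unusual in that they end in a stem-loop bound by the protein Slbp and carry no poly(A) tail. Some clustered genes also give polyadenylated transcripts, which run past the stem-loop or use a different last exon and are known from cells that differentiate or leave the cell cycle. Libraries selected with oligo(dT), as here, therefore hold little of the S phase form, and the values below are those of whatever part of the histone RNA was captured. The replication-independent histones, such as H3f3a, H3f3b and H2afz, come from genes elsewhere in the genome with ordinary polyadenylated mRNAs.

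Each sample held between 32187040 and 33837949 counted reads, so that 3 reads corresponded to 0.0887 to 0.0932 reads per 1000000 counted reads (CPM). Sirt6 had 487, 402 and 472 reads in WT and 4, 5 and 7 in Sirt6-/-. Atm had 1536, 1617 and 1627 reads in WT and 3768, 3564 and 3443 in Atm-/-, where it was thus higher and not lower (log2 fold change 1.04, SE 0.06, adjusted p = 5.9e-10, from the quasi-likelihood test of edgeR, adjusted by Benjamini-Hochberg, as for all tests below). Counts summed over the whole gene do not show which part of Atm is deleted, so Atm-/- stands below for the samples labelled Atm-/-. Trp53, the gene of p53, had 7108, 7102 and 6563 reads in WT, 806, 946 and 928 in Atm-/- and 9081, 9127 and 9218 in Sirt6-/-. Of 12 fibroblast markers 10 exceeded 1 CPM in all 9 samples, and their summed level was 26600 to 29600 CPM in WT, 9610 to 9840 in Atm-/- and 20400 to 20700 in Sirt6-/-. Against WT, 2 of 11 fibroblast markers tested were higher and 9 lower in Atm-/- (18.2% and 81.8%, against 34.7% and 33.6% of all genes). In Sirt6-/- 5 were higher and 6 lower (45.5% and 54.5%, against 39.2% and 37.4%). Lum, a collagen-binding proteoglycan, was at 0 reads in all Atm-/- samples. Epithelial markers summed to 21.7 to 24.2 CPM in WT, 92.8 to 100 in Atm-/- and 20.6 to 24.2 in Sirt6-/-, and their part in the histone results was not tested. In such bulk samples, fewer cells of a type and less RNA per cell cannot be told apart.

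The clustered histone genes together took 1559, 1616 and 1484 reads in WT, 952, 1262 and 1198 in Atm-/- and 1088, 1075 and 1166 in Sirt6-/-. This came to 46.5 ± 2.08 CPM in WT (mean ± SD, n = 3 here and below), 34.7 ± 5.01 in Atm-/- and 34.0 ± 0.886 in Sirt6-/-. All 6 knockout samples lay below all 3 WT samples. By comparison, the 16 replication-independent histone genes listed summed to 2270 ± 74.2, 2380 ± 61.6 and 2310 ± 26.9 CPM. A small number of genes carried most of the clustered signal. In 6 genes no read was counted in any sample, 9 had 1 to 9 reads over all 9 samples, and 45 had a mean under 10 reads in every group. At least 30 reads on average in a group were found for 10 genes. The 6 genes without a read were Hist1h2aa, Hist1h2ba, Hist1h2ap, Hist1h2br, Hist1h4n and Hist2h3c1, and 0 reads in 1 sample allow a level of up to 0.0932 CPM, by counting error alone.

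**Figure D1:**
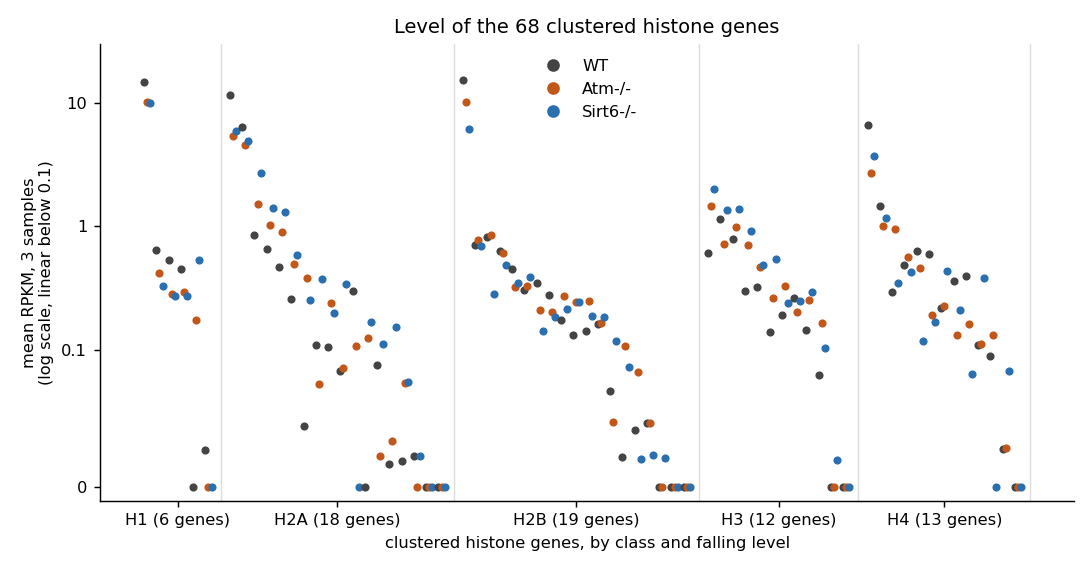
Each group of 3 points is 1 of the 68 genes, and the height is its mean level in RPKM over 3 samples (logarithmic axis, linear below 0.1), coloured by genotype and ordered within each class by falling level. In H1, H2B and H4 a single gene stands above the rest (Hist1h1c, Hist1h2bc and Hist1h4i), in H2A Hist3h2a and Hist2h2aa1 do, and no H3 gene reaches 3 RPKM.

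Levels between genes were compared per length, as RPKM (CPM divided by the listed transcript length in kilobases). In WT the order was Hist1h2bc at 15.3 ± 0.787 RPKM, Hist1h1c at 14.9 ± 1.24, Hist3h2a at 11.5 ± 0.575, Hist1h4i at 6.68 ± 0.697 and Hist2h2aa1 at 6.37 ± 0.892. Hist1h2bc and Hist1h1c did not differ beyond their spread in WT, and neither did Hist1h4i and Hist2h2aa1. The next in WT were Hist1h4h at 1.47 ± 0.288 RPKM and Hist1h3c at 1.14 ± 0.353, and every remaining gene had a WT mean below 1 RPKM. These 5 leading genes held 75.7% ± 2.66 of the summed RPKM of all 68 genes in WT, 61.9% ± 0.212 in Atm-/- and 56.2% ± 2.64 in Sirt6-/-. In Sirt6-/- the order of the leaders was different, with Hist1h1c at 9.91 ± 0.495 RPKM followed by Hist1h2bc at 6.11 ± 1.36 and Hist3h2a at 5.88 ± 0.848, of which the latter pair did not differ beyond their spread.

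By class, H2A held 28.9% ± 2.52 of the summed RPKM in WT, H2B 27.1% ± 0.831, H1 22.9% ± 0.908, H4 15.7% ± 1.81 and H3 5.48% ± 0.191. Nucleosomes contain H2A, H2B, H3 and H4 in equal number, whereas in WT the captured RNA of the H3 class was the smallest part. In Atm-/- the H3 share was 10.4% ± 0.603 and in Sirt6-/- 14.0% ± 1.11, and the lowest of the 6 knockout values, 9.89%, lay above the highest WT value, 5.70%. The H2B share was 27.5% ± 0.391 in Atm-/-, close to WT, and 17.9% ± 3.44 in Sirt6-/-, where the highest sample at 20% lay below the lowest WT sample at 26.3%. Shares depend on the scale. On raw reads, without division by length, H2B led in WT with 35.8% and H3 held 4.48%. In Sirt6-/- the mean share of H4 was below that of H3 on both scales. On reads this held in each sample, with 87, 117 and 86 H4 reads against 114, 125 and 139 H3 reads. On RPKM it did not hold in every sample, since the highest H4 share, 16.3%, lay above the highest H3 share, 14.8%. H4 held 13.2% ± 2.65 of the summed RPKM and 8.75% ± 1.87 of the reads, and H3 14% ± 1.11 and 11.3% ± 0.763.

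The stem-loop was looked up in the transcripts of GENCODE M21 (GRCm38) to see which of the genes are annotated with RNA beyond it. The histone stem-loop was searched on the transcribed strand as a pattern of 16 letters in which the variable positions were left free, and 0.933% of all 141767 transcripts contained it. A transcript of 44 of the 68 genes held the pattern. The sites below, read from those transcripts, are shown because they belong to the genes that carry the results. The stem-loop is in capitals, with 5 bases on each side. Those of genes that were lower in both knockouts are given first.
Hist1h1c: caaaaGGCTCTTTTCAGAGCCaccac
Hist3h2a: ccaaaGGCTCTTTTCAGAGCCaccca
Hist2h2aa1: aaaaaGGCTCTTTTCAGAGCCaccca
Hist1h4i: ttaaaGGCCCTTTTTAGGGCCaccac
Those of genes that were higher in Sirt6-/- follow.
Hist1h3b: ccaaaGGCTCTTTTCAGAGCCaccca
Hist1h2ao: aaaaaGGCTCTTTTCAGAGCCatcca
Hist1h2ae: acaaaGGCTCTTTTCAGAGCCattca
The H1, H2A and H3 sites shown had the same 16 letters, while that of the H4 gene Hist1h4i differed within the stem and loop. No match was found in the annotated transcripts of Hist1h2bc and Hist2h2be, which says only that these letters are not in those transcripts.

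What followed the stem-loop differed between the genes. The transcript of Hist1h1c went on for 840 bases after its stem-loop at chr13:23739512-23739527 on the plus strand, with 1 polyadenylation signal AATAAA that starts 26 bases from the transcript's end. Hist3h2a continued for 1643 bases after chr11:58955172-58955187, plus strand, also with 1 AATAAA, 34 bases from the end. Hist1h4i continued for 330 bases after chr13:22040966-22040981, minus strand, with no AATAAA. The transcript of Hist2h2aa1 ended 35 bases after its site at chr3:96246032-96246047. Among the genes that were higher in Sirt6-/-, the transcripts of Hist1h3b and Hist1h2ao ended 51 and 31 bases after the stem-loop, and that of Hist1h2ae 151 bases after it. In all, 22 of the 68 genes had an annotated transcript that ran at least 100 bases past the stem-loop, 13 of them with AATAAA in that stretch, and they held 5336 of the 11400 reads of all clustered genes (46.8%, median 50 reads per gene). The transcripts of another 22 genes ended within that distance, and these genes held 2106 reads (18.5%, median 28 per gene). The other 24 genes, without the pattern, held 3958 reads (34.7%), of which 2285 belonged to Hist1h2bc. The lengths listed with the deposited counts were 725 bases for Hist1h1c, 508 for Hist3h2a and 403 for Hist1h4i. The GENCODE transcripts of these genes have 1560, 2146 and 727 bases. Their stretches past the stem-loop may thus lie outside the gene models that were counted, and the read shares above do not show reads from them. The deposited counts do not say where in a gene a read lay, so reads from RNA past the stem-loop could not be separated from the others.

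The first comparison set the samples labelled Atm-/- against WT. Enough reads for a test were present for 19 of the 68 genes. Of these, 5 were lower in Atm-/- (Hist1h1c, Hist1h2bc, Hist3h2a, Hist2h2aa1 and Hist1h4i) and 1 was higher (Hist1h3b). This is 26.3% lower and 5.26% higher, against 33.6% called lower and 34.7% called higher among all 13283 genes tested. The median log2 fold change of the 19 genes was -0.65, and that of all genes tested 0.015. The comparison of Sirt6-/- with WT gave 17 tested genes. The same 5 genes were lower, and 3 were higher (Hist1h3b, Hist1h2ao and Hist1h2ae), which is 29.4% lower and 17.6% higher, against 37.4% called lower and 39.2% called higher among all 13206 genes tested. The median was -0.45 for the 17 genes and 0.024 for all genes. With library totals in place of TMM normalization the split in Sirt6-/- was 4 higher and 4 lower, and the median of all genes moved to 0.18 in Atm-/- and 0.11 in Sirt6-/-. Among all genes tested, library totals called 46.3% higher and 25% lower in Atm-/-, and 43.9% higher and 32.7% lower in Sirt6-/-. Both comparisons used the same 3 WT samples, so a deviation of WT enters both.

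**Figure D2:**
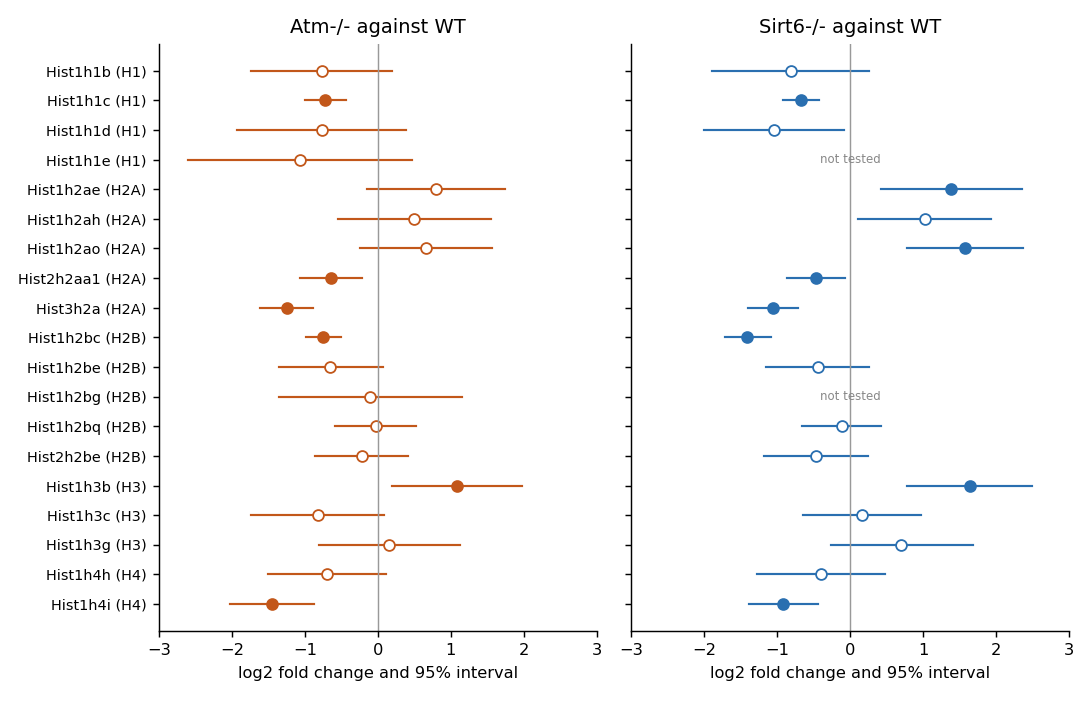
Points are log2 fold changes against WT from edgeR, for the 19 clustered histone genes tested in either comparison. Atm-/- is on the left and Sirt6-/- on the right. Lines are approximate 95% intervals, and filled points passed an adjusted p of 0.05. Hist1h1c, Hist2h2aa1, Hist3h2a, Hist1h2bc and Hist1h4i are filled and left of 0 in both panels, Hist1h3b is filled and right of 0 in both, and Hist1h2ae and Hist1h2ao are filled on the right only.

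Among the H1 genes, Hist1h1c, which encodes the widely expressed linker histone H1.2 (chr13:23738807-23739531, plus strand), had 360, 392 and 334 reads in WT, 200, 250 and 274 in Atm-/- and 219, 238 and 248 in Sirt6-/-. All knockout samples were below all WT samples, and the knockouts overlapped each other. The log2 fold change against WT was -0.72 in Atm-/- (SE 0.14, adjusted p = 0.000392) and -0.68 in Sirt6-/- (SE 0.12, adjusted p = 0.000173). The other H1 genes were far less abundant. Hist1h1b (H1.5) had 12 reads in each WT sample and 3 to 10 in the knockouts, with log2 fold changes of -0.77 (adjusted p = 0.178) and -0.82 (adjusted p = 0.19). Hist1h1d (H1.3) had 11, 17 and 22 reads in WT, 3, 8 and 21 in Atm-/- and 8, 9 and 8 in Sirt6-/-, without a call (adjusted p = 0.262 and 0.0647). Without Atm-/- replicate 3 the log2 fold change of Hist1h1d in Atm-/- was -1.72 and passed the test (adjusted p = 0.0381), and without WT replicate 1 that in Sirt6-/- was -1.29 and passed it (adjusted p = 0.0448). Hist1h1e (H1.4) had 5, 24 and 13 reads in WT, 16, 6 and 0 in Atm-/- and 8, 8 and 5 in Sirt6-/-, and was not called in Atm-/- (log2 fold change -1.06, adjusted p = 0.243).

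Hist1h1a, the gene of H1.1, went the other way at a low level. It was at 0 in all 3 WT samples, with 4, 7 and 2 reads in Atm-/- and 7, 14 and 18 in Sirt6-/-. Its counts were too low for the test. Against a floor of 3 reads over the 3 WT samples, its summed 13 reads in Atm-/- and 39 in Sirt6-/- were 4.41-fold and 13.3-fold higher. These ratios allow for counting error in WT only, and not for that of the knockout counts or the spread between samples. The gene falls outside the rule for named genes and was chosen after its values were seen, as were Hist1h2be and the partners of divergent pairs and copies named below. Hist1h1t, the H1 gene of the testis, had 2 reads in a single WT sample and 0 in the other 8 samples.

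Among the H2A genes, Hist3h2a of the small Hist3 cluster (chr11:58954685-58955192, plus strand) had 210, 189 and 190 reads in WT, 75, 113 and 84 in Atm-/- and 110, 82 and 101 in Sirt6-/-. Neither knockout overlapped WT. The log2 fold change was -1.25 in Atm-/- (SE 0.19, adjusted p = 3.01e-05) and -1.06 in Sirt6-/- (SE 0.18, adjusted p = 6.78e-05). Hist2h2aa1 (chr3:96245497-96246052, plus strand) had 130, 127 and 99 reads in WT, 71, 97 and 83 in Atm-/- and 91, 86 and 89 in Sirt6-/-. The highest Atm-/- sample and the lowest WT sample were 2 reads apart, at 97 and 99. The log2 fold change was -0.64 in Atm-/- (adjusted p = 0.0152) and -0.47 in Sirt6-/- (adjusted p = 0.0467). The call in Atm-/- was lost without WT replicate 1 (adjusted p = 0.0512) or Atm-/- replicate 1 (adjusted p = 0.0683), and with library totals (adjusted p = 0.0573). The call in Sirt6-/- was lost without WT replicate 1 or 2 or any Sirt6-/- replicate, with adjusted p between 0.08 and 0.117, and also with library totals (adjusted p = 0.0993), the replicate block (adjusted p = 0.083) and the DESeq2 Wald test (adjusted p = 0.0708).

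3 further H2A genes had higher values in the knockouts. Hist1h2ao (chr13:21810367-21810918, plus strand) had 19, 20 and 8 reads in WT, 15, 35 and 32 in Atm-/- and 36, 50 and 60 in Sirt6-/-. It was higher in Sirt6-/- without overlap (log2 fold change 1.57, SE 0.40, adjusted p = 0.00257), while Atm-/- overlapped WT (0.66, adjusted p = 0.221). Hist1h2ae had 5, 12 and 9 reads in WT, 19, 16 and 15 in Atm-/- and 34, 19 and 18 in Sirt6-/-. Its log2 fold change was 1.38 in Sirt6-/- (SE 0.49, adjusted p = 0.0197) and 0.80 in Atm-/- (adjusted p = 0.157). The call was lost without WT replicate 1 (1.09, adjusted p = 0.09), WT replicate 3 (1.40, adjusted p = 0.0514) or Sirt6-/- replicate 1 (1.03, adjusted p = 0.121), and in the DESeq2 Wald test (adjusted p = 0.0529). Hist1h2ae is outside the rule for named genes and was named after its values were seen. Hist1h2ah had 7, 18 and 9 reads in WT, 9, 17 and 27 in Atm-/- and 24, 28 and 20 in Sirt6-/-, where the log2 fold change of 1.02 was not called (adjusted p = 0.0577) but was called without WT replicate 2 (1.51, adjusted p = 0.0213).

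**Figure D3:**
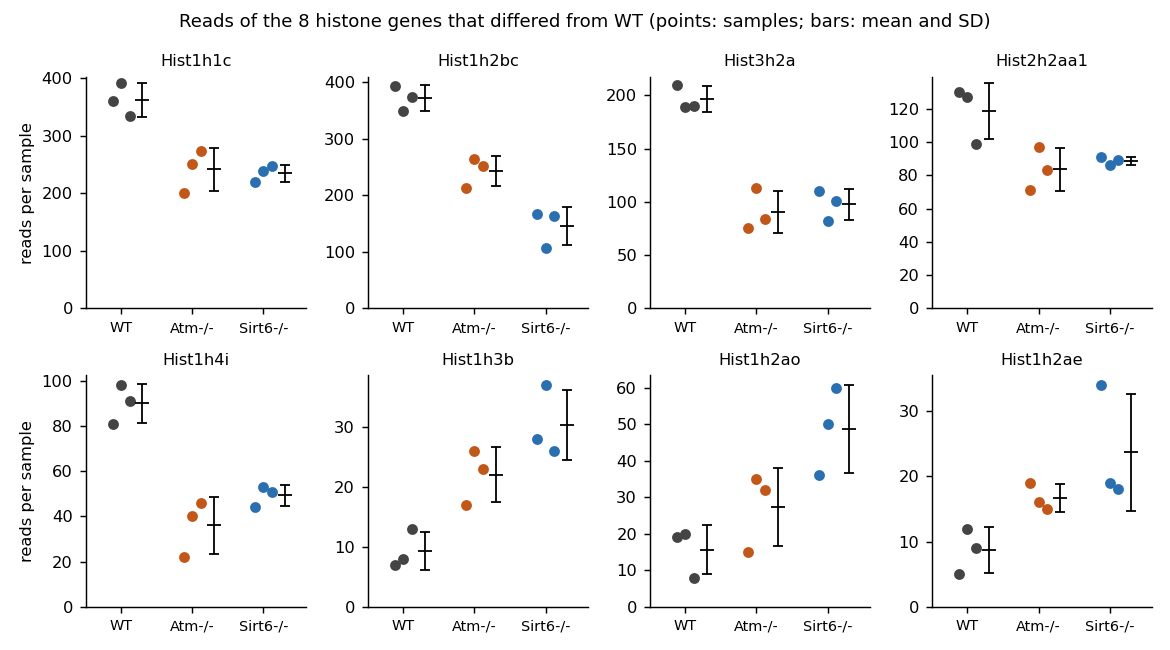
Reads per sample (points, coloured by genotype) with mean and SD (bars) for the 8 clustered histone genes called in either knockout against WT, each axis starting at 0. In the first 5 panels all knockout samples lie below all WT samples, and in the last 3 all Sirt6-/- samples lie above all WT samples.

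The H2B class was led by Hist1h2bc (chr13:23684199-23692480, plus strand), which had 394, 349 and 374 reads in WT, 214, 265 and 252 in Atm-/- and 167, 107 and 163 in Sirt6-/-. The 3 genotypes did not overlap, with WT highest and Sirt6-/- lowest. The log2 fold change was -0.75 in Atm-/- (SE 0.13, adjusted p = 0.000101) and -1.41 in Sirt6-/- (SE 0.16, adjusted p = 1.6e-06). No call was made for the next genes in reads. Hist2h2be had 70, 58 and 39 reads in WT, 49, 74 and 35 in Atm-/- and 22, 52 and 51 in Sirt6-/-, with 95% intervals of the log2 fold change from -0.86 to 0.42 and from -1.18 to 0.24. Hist1h2bq had 50, 48 and 53 reads in WT, 42, 65 and 56 in Atm-/- and 45, 47 and 52 in Sirt6-/-, and its intervals were -0.58 to 0.52 and -0.66 to 0.42. Hist1h2be had 35, 32 and 46 reads in WT, 18, 25 and 36 in Atm-/- and 39, 21 and 26 in Sirt6-/-, with log2 fold changes of -0.65 (adjusted p = 0.129) and -0.45 (adjusted p = 0.27). Hist1h2bg varied within a genotype as much as between them, with 4, 20 and 14 reads in WT, 4, 12 and 23 in Atm-/- and 6, 2 and 5 in Sirt6-/-.

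In the H3 class, Hist1h3b (chr13:23752345-23752840, plus strand) had 7, 8 and 13 reads in WT, 17, 26 and 23 in Atm-/- and 28, 37 and 26 in Sirt6-/-. Both knockouts lay above WT without overlap. The log2 fold change was 1.64 in Sirt6-/- (SE 0.44, adjusted p = 0.00341) and 1.09 in Atm-/- (SE 0.45, adjusted p = 0.0451). The call in Atm-/- was lost without WT replicate 1 (0.92, adjusted p = 0.15), WT replicate 2 (1.0, adjusted p = 0.121), Atm-/- replicate 2 (0.97, adjusted p = 0.138) or Atm-/- replicate 3 (1.05, adjusted p = 0.108), and was not made by the DESeq2 Wald test (1.10, adjusted p = 0.131), with the replicate block (adjusted p = 0.083) or without the filter on low counts (adjusted p = 0.108). Hist1h3c had 13, 24 and 18 reads in WT, 9, 9 and 16 in Atm-/- and 21, 17 and 26 in Sirt6-/-. Hist1h3g had 20, 9 and 10 reads in WT, 15, 23 and 10 in Atm-/- and 12, 33 and 21 in Sirt6-/-. Neither was called against WT. Hist1h3a was below the limit for a test against WT and had 6, 6 and 3 reads there, 13, 10 and 12 in Atm-/- and 13, 6 and 27 in Sirt6-/-.

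In the H4 class, Hist1h4i (chr13:22040960-22041362, minus strand) had 81, 98 and 91 reads in WT, 22, 40 and 46 in Atm-/- and 44, 53 and 51 in Sirt6-/-. The highest knockout sample, at 53 reads, was well below the lowest WT sample, at 81. The log2 fold change was -1.45 in Atm-/- (SE 0.29, adjusted p = 0.000504) and -0.92 in Sirt6-/- (SE 0.24, adjusted p = 0.00313). Hist1h4h had 19, 26 and 19 reads in WT, 12, 13 and 18 in Atm-/- and 12, 26 and 12 in Sirt6-/-, without a call (adjusted p = 0.145 and 0.423). Hist1h4k and Hist1h4m stayed below the limit for a test, with at most 11 and 17 reads in a sample. The latter had 6, 0 and 6 reads in WT, 11, 10 and 17 in Atm-/- and 7, 1 and 6 in Sirt6-/-.

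In the direct comparison of the knockouts, 17 clustered genes were tested, and 1 was higher and 1 lower in Atm-/- (5.88% each), against 38% called higher and 37.8% called lower among all 13460 genes tested. Hist1h2bc was higher in Atm-/- than in Sirt6-/- (log2 fold change 0.67, SE 0.17, adjusted p = 0.00146), and its 214 to 265 and 107 to 167 reads did not overlap. Hist1h2ao was lower in Atm-/- (-0.90, SE 0.36, adjusted p = 0.0318). That call was lost without Atm-/- replicate 1 (-0.60, adjusted p = 0.161), Sirt6-/- replicate 2 (-0.87, adjusted p = 0.0733) or Sirt6-/- replicate 3 (-0.73, adjusted p = 0.134), in the fit of all 9 samples (adjusted p = 0.0523) and in the DESeq2 Wald test (adjusted p = 0.0582). For the other genes that fell in both knockouts, the 95% interval of the log2 difference was -0.32 to 0.26 for Hist1h1c, -0.62 to 0.26 for Hist3h2a, -0.58 to 0.28 for Hist2h2aa1 and -1.17 to 0.13 for Hist1h4i. Hist1h3c was at -0.97 (adjusted p = 0.0635), and at -1.31 without Atm-/- replicate 3 (adjusted p = 0.0403).

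Summed by class, the CPM of H1, H2B and H4 were below WT in all samples of both knockouts and those of H3 above it, while the H2A sums were below WT in Atm-/- and overlapped it in Sirt6-/- (9.19 to 9.84 against 9.99 to 12.2, without overlap, on the TMM scale). A single gene was called lower in each of H1, H2B and H4, namely Hist1h1c, Hist1h2bc and Hist1h4i. Hist1h1c had 360, 392 and 334 of the 388, 445 and 383 H1 reads in WT. Hist1h2bc had 394, 349 and 374 of 569, 550 and 548, and Hist1h4i 81, 98 and 91 of 137, 161 and 166. These class sums thus depend largely on 1 gene each, and sums without these genes were not compared with WT. The log2 ratio of the H4 sums was -0.93 in Atm-/- and -0.74 in Sirt6-/-, with SDs between samples of 0.21 and 0.22. The ratio of the H1 sums was -0.72 (SD 0.18) and -0.64 (SD 0.11). For H2B it was -0.55 (SD 0.16) in Atm-/- and -0.97 (SD 0.14) in Sirt6-/-, and for H2A -0.63 (SD 0.22) and -0.25 (SD 0.12). For H3 it was 0.28 (SD 0.15) and 0.80 (SD 0.14). The H3 sums were 1.92 to 2.35 in WT, 2.55 to 3.04 in Atm-/- and 3.53 to 4.18 CPM in Sirt6-/-, which do not overlap as CPM of library totals. On the TMM scale of the ratios above, Atm-/- at 2.41 to 2.88 overlapped WT at 2.03 to 2.49, and Sirt6-/- at 3.41 to 4.07 stayed above WT at 1.98 to 2.43. Taken apart from the 5 genes that were lower in both knockouts, the other 63 genes summed to 12.4 ± 1.34 CPM in WT, 13.5 ± 1.97 in Atm-/- and 15.1 ± 0.875 in Sirt6-/-. This division was made by the calls themselves and is a description.

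**Figure D4:**
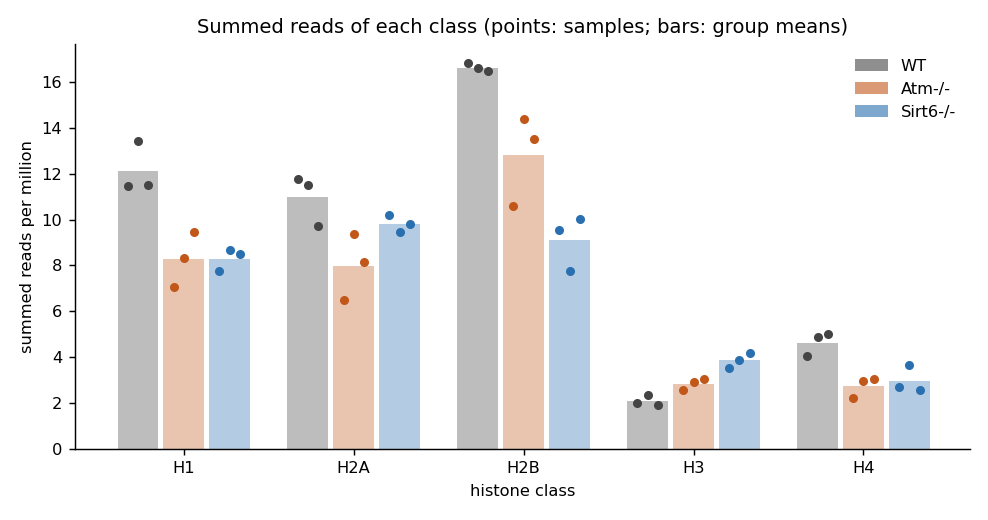
Bars are the group means and points the single samples of the summed CPM of each histone class (vertical axis from 0), with WT, Atm-/- and Sirt6-/- side by side. H1, H2B and H4 are lower in both knockouts without overlap with WT, and H3 is higher, between 2.55 and 3.04 in Atm-/- and between 3.53 and 4.18 in Sirt6-/- against at most 2.35 in WT, with CPM of library totals, whereas on the TMM scale Atm-/- overlaps WT in H3.

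The stretches before the starts of the genes that were lower in both knockouts were read from RefSeq (GRCm38.p6) and are shown because these genes moved together. Each is the 250 bases before the annotated start. For Hist1h2bc the table used here holds no such entry, and the stretch of its divergent neighbour Hist1h2ac, whose start lies 239 bases away, covers the region between them. Hist1h3b is added as the gene that was higher in both knockouts. Capitals mark the motifs TATAA (TATA box), CCAAT, ATTTGCAT (octamer, bound by Pou2f1) and AAACACA (H1 box) on either strand, and overlapping hits run together.
Hist1h1c: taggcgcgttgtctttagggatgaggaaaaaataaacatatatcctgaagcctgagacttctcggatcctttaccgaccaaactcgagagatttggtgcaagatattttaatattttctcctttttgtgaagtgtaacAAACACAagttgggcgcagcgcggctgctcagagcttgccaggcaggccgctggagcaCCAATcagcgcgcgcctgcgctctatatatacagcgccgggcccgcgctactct
Hist3h2a: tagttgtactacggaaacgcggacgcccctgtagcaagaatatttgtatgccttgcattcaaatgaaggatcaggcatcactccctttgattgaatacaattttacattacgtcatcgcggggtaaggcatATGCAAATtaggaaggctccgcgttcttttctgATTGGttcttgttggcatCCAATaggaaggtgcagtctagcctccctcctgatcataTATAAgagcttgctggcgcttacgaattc
Hist1h2ac: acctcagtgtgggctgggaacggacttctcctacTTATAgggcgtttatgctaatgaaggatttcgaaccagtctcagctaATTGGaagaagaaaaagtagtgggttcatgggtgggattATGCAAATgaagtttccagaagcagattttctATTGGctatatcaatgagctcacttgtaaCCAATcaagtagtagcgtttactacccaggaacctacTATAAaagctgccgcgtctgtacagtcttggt
Hist1h4i: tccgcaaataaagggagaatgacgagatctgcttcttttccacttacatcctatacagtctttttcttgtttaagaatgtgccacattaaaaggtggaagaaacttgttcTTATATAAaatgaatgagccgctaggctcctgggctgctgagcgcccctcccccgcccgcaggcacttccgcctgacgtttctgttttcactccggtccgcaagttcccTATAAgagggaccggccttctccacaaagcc
Hist2h2aa1: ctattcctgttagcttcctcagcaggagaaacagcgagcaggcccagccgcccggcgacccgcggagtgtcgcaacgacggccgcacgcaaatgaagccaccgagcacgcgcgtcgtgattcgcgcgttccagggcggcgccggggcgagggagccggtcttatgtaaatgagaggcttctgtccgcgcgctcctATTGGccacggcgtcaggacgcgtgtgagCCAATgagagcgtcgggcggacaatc
Hist1h3b: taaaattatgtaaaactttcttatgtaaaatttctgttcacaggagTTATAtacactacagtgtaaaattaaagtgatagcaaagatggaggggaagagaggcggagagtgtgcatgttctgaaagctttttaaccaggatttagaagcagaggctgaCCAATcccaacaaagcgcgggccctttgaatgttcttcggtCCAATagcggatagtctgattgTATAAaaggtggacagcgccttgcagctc
The stretches lie at chr13:23738557-23738806 on the plus strand, chr11:58954435-58954684 plus, chr13:23683960-23684209 minus, chr13:22041363-22041612 minus, chr3:96245247-96245496 plus and chr13:23752095-23752344 plus, in the order printed.

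The genes that fell had no single set of these motifs. CCAAT was present before Hist1h1c, Hist3h2a, Hist1h2ac and Hist2h2aa1, and absent from the window of Hist1h4i. The H1 box was found before Hist1h1c, with its first base 112 bases before the start, and the octamer before Hist3h2a and Hist1h2ac, 119 and 130 bases before the start. Hist1h3b, which was higher, had CCAAT 51 and TATAA 29 bases before its start. Among the 62 clustered genes with an entry, CCAAT was in the window of 82.3%, against 33.8% of all 32851 promoters, and by class in 6 of 6 H1, 18 of 18 H2A, 16 of 16 H2B, 8 of 10 H3 and 3 of 12 H4 genes. TATAA was in 64.5% against 22.8%. The octamer was in 21% against 1.6%, in 7 of the H2A and 6 of the H2B windows and in no other class. The H1 box was in 5 of 6 H1 windows, and in 14.5% of all clustered genes against 6.25% of all promoters. A match is a description of the letters and not a bound site, and neighbours in divergent pairs share parts of their windows.

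Many H2A and H2B genes stand head to head, and 13 such pairs had starts 163 to 280 bases apart. In several pairs the reads were far from equal. Hist1h2ac had 0, 6 and 8 reads summed over the 3 samples of WT, Atm-/- and Sirt6-/-, while Hist1h2bc on the other side of the shared stretch had 1117, 731 and 437. Hist2h2ac had 14, 5 and 0 reads beside 167, 158 and 125 of Hist2h2be. Hist3h2a had 1154 reads over all samples beside 1 read of the pseudogene Hist3h2bb-ps, 172 bases away. In the pair Hist1h2ao and Hist1h2bq, 167 bases apart, the H2A gene had 47, 82 and 146 reads and the H2B gene 151, 163 and 144. Hist1h2ae had 26, 50 and 71 reads and its neighbour Hist1h2bg 38, 39 and 13. Thus a rise of the H2A gene in Sirt6-/- was not seen in its H2B neighbour in these 2 pairs, although the difference within a pair was not tested. Both genes had under 100 reads over all 9 samples in 7 of the 13 pairs.

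**Figure D5:**
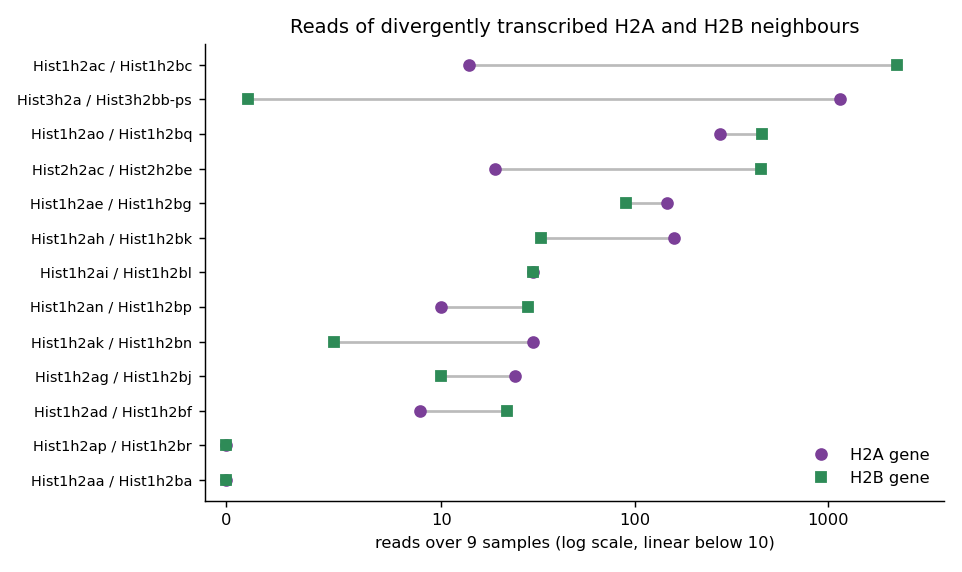
Each line is a pair of divergent neighbours, with the reads of the H2A gene (circle) and the H2B gene (square) summed over 9 samples on a logarithmic axis that is linear below 10. Hist1h2bc (2285 reads) and Hist1h2ac (14) are far apart, as are Hist3h2a (1154) and Hist3h2bb-ps (1), and Hist1h2ai and Hist1h2bl have 30 reads each.

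Some of the genes are near-identical copies, whose reads a counting step may assign to either copy. For 9 of the 68 genes, Hist1h2ao, Hist1h2bq and Hist2h2aa1 among them, the deposited tables list the gene's own transcript accession 2 times in 1 row. Of the stretches of 50 bases in the annotated transcripts, 93.5% of those of Hist1h2ao were also in Hist1h2ap, which had 0 reads, and 97.3% of those of Hist1h2bq were in Hist1h2br, which also had 0 reads. For Hist2h2aa1, 89.2% were in Hist2h2aa2, which had 0, 1 and 0 reads in WT, 1, 1 and 0 in Atm-/- and 5, 1 and 3 in Sirt6-/-. The values of Hist1h2ao, Hist1h2bq and Hist2h2aa1 are therefore those of a pair of copies and uncertain for either gene. Of the stretches of Hist1h4m, 89.8% were in Hist1h4n, and of those of Hist2h3c2, 63.5% were in Hist2h3c1, both genes without a read. Hist1h3b shared 60.4% and Hist1h2ah 90.7% of such stretches with other clustered genes. Among the leading genes of the falls, Hist3h2a shared 2%, Hist1h1c 8.54%, Hist1h4i 28.9% and Hist1h2bc 29.4%.

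RNAs that carry no poly(A) tail were counted beside the histone genes. Of 128 such genes listed (small nucleolar and small nuclear RNAs, 7SK, RNase P and MRP RNA and others), 11 had any read. Their summed level was 1.35 to 3.59 CPM in WT, 1.2 to 1.43 in Atm-/- and 1.05 to 1.62 in Sirt6-/-, so that the higher WT samples stood apart and the lowest WT sample fell within the ranges of both knockouts. Rpph1, the RNA of RNase P, made up most of the difference, with 49, 77 and 16 reads in WT, 4, 6 and 3 in Atm-/- and 0, 1 and 3 in Sirt6-/- (log2 fold change -3.55, adjusted p = 0.000132, and -5.08, adjusted p = 4.31e-05). Without Rpph1 the range was 0.872 to 1.45 CPM in WT, 1.02 to 1.31 in Atm-/- and 1.05 to 1.53 in Sirt6-/-. The part of such RNA in the lower histone values was not tested. The 5 histone genes that fell, a set chosen by the calls, summed to 1175, 1155 and 1088 reads in WT replicates 1, 2 and 3. Their sums were 582, 765 and 739 in Atm-/- and 631, 566 and 652 in Sirt6-/-.

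The replication-independent histone genes, whose summed level was given above, moved in both directions. Of 11 tested in Atm-/- 4 were higher and 4 lower (36.4% each, against 34.7% and 33.6% of all genes), with a median log2 fold change of -0.07, but with library totals 5 were higher and 1 lower and the median was 0.09. Of 12 tested in Sirt6-/- 8 were higher and 4 lower under either scaling (66.7% and 33.3%, against 39.2% and 37.4% of all genes with TMM), with a median of 0.29. H1fx (H1.10) had 19, 37 and 19 reads in WT, 191, 212 and 212 in Atm-/- and 245, 256 and 299 in Sirt6-/-, with log2 fold changes of 2.89 (SE 0.26, adjusted p = 1.47e-07) and 3.35 (SE 0.25, adjusted p = 1.05e-08). H1f0, the linker histone of differentiated cells, was at -0.32 in Atm-/- (adjusted p = 0.000734, and 0.0537 with library totals) and 0.52 in Sirt6-/- (adjusted p = 2.49e-06). H2afx, whose protein is phosphorylated by Atm at DNA breaks, was lower in both, at -0.56 (adjusted p = 1.49e-07) and -0.50 (adjusted p = 3.22e-07). H2afy, the gene of macroH2A1, was higher in both, at 1.13 and 0.27. Cenpa, the centromeric H3, was lower in Sirt6-/- (-0.44, adjusted p = 1.75e-06) and at -0.09 in Atm-/- (adjusted p = 0.131). Hils1, a testis H1-like gene, had 0, 1 and 1 reads in WT, 0 in all Atm-/- samples and 12, 11 and 13 in Sirt6-/-.

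The genes that drive histone transcription and process histone mRNA were measured at higher read counts. Npat, the coactivator of the clusters and the divergent neighbour of Atm, had 2403, 2675 and 2771 reads in WT, 2677, 2597 and 2509 in Atm-/- and 2510, 2427 and 2203 in Sirt6-/-. It was called slightly lower in Atm-/- (log2 fold change -0.15, adjusted p = 0.0446) and Sirt6-/- (-0.19, adjusted p = 0.0261), but with library totals it was at 0.01 in Atm-/- and -0.10 in Sirt6-/-, neither called. The call in Atm-/- was also lost in the DESeq2 Wald test (adjusted p = 0.0711) and without WT replicate 2 or 3 or any Atm-/- replicate (adjusted p between 0.0754 and 0.189), and that in Sirt6-/- without WT replicate 3 (adjusted p = 0.0844) or Sirt6-/- replicate 3 (adjusted p = 0.143). Casp8ap2, which is needed with Npat at the clusters, was at 0.11 and 0.12, not called (0.28 and 0.21, called, with library totals). Slbp was lower in Sirt6-/- (-0.24, adjusted p = 0.000387) and at -0.07 in Atm-/- (adjusted p = 0.241). Of the 16 genes of histone transcription and its cyclin E-CDK2 input, 7 were higher and 3 lower in Atm-/- (43.8% and 18.8%, against 34.7% and 33.6% of all genes), and 2 higher and 9 lower in Sirt6-/- (12.5% and 56.2%, against 39.2% and 37.4%). With library totals these counts were 10 and 2 in Atm-/- and 4 and 8 in Sirt6-/-. Cyclin E2 (Ccne2) was higher in both knockouts (0.59 and 0.51), and the CDK inhibitor Cdkn1a lower in both (-1.16 and -2.30).

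The list of histone 3′ end processing showed 12 of 26 genes higher and 2 lower in Atm-/- and 4 higher and 13 lower in Sirt6-/-, with medians of 0.17 and -0.15. This is 46.2% and 7.69% in Atm-/- and 15.4% and 50% in Sirt6-/-, beside the same shares of all genes (34.7% and 33.6%, 39.2% and 37.4%), and with library totals 21 were higher and 1 lower in Atm-/-, and 6 higher and 9 lower in Sirt6-/-. The cleavage stimulation factor gene Cstf2 had 4944, 4813 and 4823 reads in WT and 2723, 2733 and 2914 in Sirt6-/- (log2 fold change -0.85), while its retrogene Cstf2t had 1260, 1267 and 1281 in WT and 4010, 3681 and 4214 in Sirt6-/- (1.59). In Atm-/- both were at 0.08, without a call (0.24 for both, called, with library totals). Among 19 genes of histone mRNA decay, 11 were higher and 1 lower in Atm-/- (57.9% and 5.26%), and 5 higher and 4 lower in Sirt6-/- (26.3% and 21.1%). With library totals 14 were higher and 1 lower in Atm-/-, and 5 higher and 2 lower in Sirt6-/-, where the median changed sign from -0.07 to 0.02. Eri1, the exonuclease that trims the histone stem-loop, was higher in both (0.65 and 0.36), as was the uridylyltransferase gene Zcchc6 (0.58 and 0.72).

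Since clustered histone mRNA is made in S phase, markers of S phase and proliferation are given beside it. In Atm-/- 12 of 24 were higher and 5 lower (50% and 20.8%, against 34.7% and 33.6% of all genes), and in Sirt6-/- 3 were higher and 18 lower (12.5% and 75%, against 39.2% and 37.4%). With library totals 15 were higher and 4 lower in Atm-/-, and 3 higher and 15 lower in Sirt6-/-. All 24 exceeded 1 CPM in every sample, and their sum was 4800 to 5250 CPM in WT, 5810 to 5960 in Atm-/- and 3920 to 4170 in Sirt6-/-. As CPM of library totals, the summed markers were above WT in Atm-/- and below it in Sirt6-/-. The marker sums were not computed on the TMM scale. With TMM the median log2 fold change of the 24 markers was 0.11 in Atm-/- and -0.42 in Sirt6-/-, and with library totals 0.27 and -0.34. Examples are the primase gene Prim1, at 0.58 in Atm-/- and -0.24 in Sirt6-/-, the latter not called with library totals (-0.15), and the replication licensing gene Mcm2, at -0.10 (adjusted p = 0.0824) and -0.87. The part of cell cycle stage in the histone values was not tested.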

How the data were processed

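Poly(A) RNA was selected with oligo(dT), fragmented, primed with random hexamers and sequenced by Illumina, per the labels, in 3 WT, 3 Atm-/- and 3 Sirt6-/- MEF samples. The authors deposited, for each sample, raw read counts per gene, without normalization, and RPKM values, which divide those counts by a listed transcript length and the sample's read total. The submitters' processing notes name mm10. The aligner, the counting tool and the treatment of reads that match several genes or either strand are not given in the sources used here. Such reads matter for near-identical histone copies.

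Groups were taken from the sample titles. Each pair of genotypes was fitted to the deposited counts with edgeR 4.0.16 in R 4.3.3 (filterByExpr, TMM, quasi-likelihood test), with Benjamini-Hochberg adjustment over all genes tested and a threshold of 0.05. SEs were derived from the F statistic. RPKM served only for levels. Low genes (3 reads are 0.0887 to 0.0932 CPM) are limited by counting error. No samples were identical. The procedure was run on simulated counts in which few genes were changed, none of them with low counts. That run says nothing about calls at the low counts of many clustered genes. 67 of the 68 genes were matched to RefSeq by accession and 1 by an older symbol.

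Named genes were, per class, the 4 with the highest mean RPKM, up to 5 called rises and falls per comparison without overlap and with a mean of at least 30 reads in a group, and 3 testis genes, and from each other list the 2 leading called genes in each direction. The members and lists were chosen with earlier results of these data known. Alternatives were DESeq2 1.42.0 size factors and Wald test, library totals, no filter, at least 10 reads in every sample, a single fit of all 9 samples, a replicate block, a 2-fold limit and each sample left out. List counts with library totals and class sums on the TMM scale were added after the data were seen.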

Additional observations from a re-analysis of the deposited data

Results flagged for a closer look

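The results below were singled out because the direct test of Atm-/- against Sirt6-/- found a difference (edgeR, adjusted p under 0.05). Such a call was common, since 38% of all 13460 genes tested were called higher and 37.8% lower in Atm-/-. All values are log2 fold changes of Atm-/- over Sirt6-/-. Of the clustered histone genes, Hist1h2bc was at 0.67 and Hist1h2ao at -0.90, the latter a call lost under several alternatives, as given above. Of the genes targeted or read as checks, Atm was at 0.59, Sirt6 at 6.10, Trp53 at -3.42 and Cdkn1a at 1.15.

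Of the replication-independent histone genes, H2afy was at 0.87, Cenpa at 0.37, H1fx at -0.45 and H1f0 at -0.82. Hils1 was at -6.63, a value that rests on 0 reads in all 3 Atm-/- samples and so depends on the prior count. Of the genes of histone transcription, E2f2 was at 1.40, Cdkn1b at -0.19 and Gon4l at -0.13, the last of which was not called with library totals. Of those of 3′ end processing, Cstf2 was at 0.95, Cpsf4 at 0.67, Snrpg at 0.57, Wdr33 at 0.52, Slbp at 0.19, Ncbp2 at -0.54 and Cstf2t at -1.50. Of those of decay, Lsm1 was at 0.60, Dcp2 at 0.50, Eri1 at 0.31 and Xrn1 at -0.59.

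Of the S phase markers, Prim1 was at 0.83, Mcm2 at 0.79, Rrm1 at 0.52, Gins4 at 0.28, Tyms at 0.27 and Gins3 at -0.28. Of the histone chaperones, Hat1 was at 0.87, Nap1l1 at 0.59, Chaf1b at 0.47, Ssrp1 at 0.35 and Hjurp at -0.23. Of the p53 targets, Bax was at 0.45 and Ccng1 at -0.32. No explanation of these differences was tested.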

How the results depend on the processing

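Hist1h1c, Hist1h2bc, Hist3h2a and Hist1h4i passed the adjusted p threshold as lower in both knockouts under each alternative other than the 2-fold limit, with log2 fold changes of -0.83 to -0.56, -0.79 to -0.58, -1.42 to -1.09 and -1.68 to -1.19 in Atm-/- and -0.74 to -0.59, -1.52 to -1.23, -1.16 to -0.96 and -1.01 to -0.83 in Sirt6-/-. Over all clustered genes tested, 615 of 668 recomputed fold changes kept their sign and side of the threshold, 27 lost and 5 gained a call, 21 that were called under neither setting changed sign, and 0 called values changed sign. With at least 10 reads in every sample, 0 genes were called higher in either knockout, because fewer genes were tested. The 2-fold limit left 2 lower in each knockout, and 0 higher and 0 lower between the knockouts. The DESeq2 Wald test called 0 higher in Atm-/- and 0 lower between the knockouts, and the fit of all 9 samples also 0 lower between them. For these, the cause was not tested. The summed histone counts had log2 ratios of -0.60 in Atm-/- and -0.54 in Sirt6-/-, and -0.43 and -0.45 with library totals. That of the H3 sums in Atm-/- rose from 0.28 to 0.45. With each sample left out, 0 to 1 genes were higher in Atm-/- and 4 to 6 lower, 3 to 5 higher and 4 to 7 lower in Sirt6-/-, and 1 to 2 higher and 0 to 2 lower between the knockouts. Npat in Atm-/- changed sign with library totals, to 0.01. Class shares all moved by more than 1 SD from RPKM to raw counts. The replicate numbers did not pair the samples: same-numbered samples had correlations of their deviations of -0.0283 to 0.102, over 0.1 in 1 of 9 pairs of samples. With the replicate number as a block, 0 genes were higher and 5 lower in Atm-/-, 3 higher and 4 lower in Sirt6-/-, and 1 and 1 between the knockouts. Most clustered genes were too shallow for a test, 49 of 68 in Atm-/- and 51 in Sirt6-/-.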

Other observations

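Histone chaperones, which carry new histones to DNA, were counted from a list of 16 genes. In Atm-/- 6 were higher and 5 lower than WT, and in Sirt6-/- 1 was higher and 11 lower, with median log2 fold changes of 0.09 and -0.27. These are 37.5% and 31.2% in Atm-/-, near the 34.7% and 33.6% of all genes, and 6.25% and 68.8% in Sirt6-/-, against 39.2% and 37.4%. With library totals 10 were higher and 4 lower in Atm-/-, and 2 higher and 9 lower in Sirt6-/-. Chaf1b, a subunit of the chromatin assembly factor CAF-1, was lower in both (-0.67 and -1.12), as was Hjurp, the chaperone of Cenpa (-0.56 and -0.31). Nap1l1, an H2A-H2B chaperone, was higher in Atm-/- (0.35) and lower in Sirt6-/- (-0.22), and Ssrp1, a subunit of FACT, was higher in Atm-/- (0.26) and at -0.08 in Sirt6-/- (adjusted p = 0.15). Hat1, which acetylates new H4, was lower in Sirt6-/- (-0.73) and at 0.12 in Atm-/- (adjusted p = 0.0599, and 0.28, called, with library totals). Rbbp4 was at 0.13 in Atm-/-, a call lost without WT replicate 1 (adjusted p = 0.124), WT replicate 3 (adjusted p = 0.0975) or Atm-/- replicate 3 (adjusted p = 0.11), and was higher in Sirt6-/- (0.22).

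Of 9 genes of the p53 list, 7 were lower and 1 higher in each knockout (77.8% and 11.1%), and 6 lower in Sirt6-/- with library totals. Among all genes 33.6% were lower and 34.7% higher in Atm-/-, and 37.4% and 39.2% in Sirt6-/-. The list includes Trp53 itself, which was lower in Atm-/- (-3.09) and higher in Sirt6-/- (0.35). Ccng1, a target of p53, had 14847, 12260 and 12491 reads in WT, 2409, 2432 and 2418 in Atm-/- and 2847, 2826 and 2963 in Sirt6-/-. Bax was at 0.19 in Atm-/-, a call lost without WT replicate 3 (adjusted p = 0.0761) or Atm-/- replicate 3 (adjusted p = 0.0704), and at -0.24 in Sirt6-/-, the latter not called with library totals (adjusted p = 0.0501). Further genes that the naming rule reached were, as log2 fold changes in Atm-/- and then Sirt6-/-, Rrm1 at -0.38 and -0.88, Tyms at -0.37 and -0.62, Gins4 at 0.56 and 0.30, Gins3 at 0.31 (not called without WT replicate 1, adjusted p = 0.0683, or Atm-/- replicate 3, adjusted p = 0.0588) and 0.61, E2f2 at 0.40 and -0.98, Gon4l at 0.18 and 0.33 and Cdkn1b at -0.53 and -0.32. In the processing and decay lists they were Zcchc11 at -0.35 and -0.24 (the latter -0.15 and not called with library totals) and Nelfe at -0.19 and -0.21 (neither called with library totals, and that in Atm-/- not called without WT replicate 2, Atm-/- replicate 1 or Atm-/- replicate 3, with adjusted p between 0.0598 and 0.112). Called in Atm-/- were Snrpg at 0.56, Wdr33 at 0.51 and Ncbp2 at -0.52, and called in Sirt6-/- were Zfp473 at 1.14, Xrn1 at 0.43, Cpsf4 at -0.64, Dcp2 at -0.59 and Lsm1 at -0.44.

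Markers of other cell types were low or uneven. Enough reads for a test were present for 1 of 4 endothelial, 1 of 5 blood cell and 1 of 8 germ cell and testis markers. The sums below may thus rest on few genes. The endothelial markers summed to 2.95 to 4.86 CPM in WT, 10.3 to 13.1 in Atm-/- and 0.652 to 0.992 in Sirt6-/-. Blood cell markers summed to 2.98 to 3.69, 2.64 to 3.31 and 1.24 to 2.29, with Cd3e at 0 in all 9 samples. Germ cell and testis markers summed to 1.93 to 2.90, 21.6 to 26.0 and 0.280 to 0.588, with Dazl, Prm2 and Tnp1 at 0 in all 9 samples. Hist1h2aa and Hist1h2ba, the H2A and H2B genes of the testis, had 0 reads in all 9 samples as well.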
